A study of Homo sapiens with 6 samples.

Results

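The genes described here are 51 interferon-stimulated genes, taken by gene symbol from a deposited table of 56303 genes. All 51 symbols were in the table. They were grouped by role into 8 sensors of foreign nucleic acid, 4 transcription factors and 39 effectors, and the effectors were divided further by what their proteins act on. No value of these libraries enters the rule, although the genes were chosen with earlier results of these data known. To learn how each gene stood once MORC2, an ATPase that acts on chromatin, was depleted, 3 shCtrl and 3 shMORC2 libraries of polyadenylated RNA were compared.

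The cells were SW480, an established line from a human colorectal adenocarcinoma, grown in medium with fetal bovine serum. The shCtrl cells had received a lentivirus with a nonsilencing hairpin and the shMORC2 cells a lentivirus with a hairpin directed at MORC2. Cells of both kinds went through infection and puromycin selection, and no treatment with interferon is named in the labels. The stable lines were described as clonal, and how many clones or hairpins stood behind each group is not given in the sources used here, so an effect of the hairpin and a difference between selected lines cannot be told apart. Replicate experiments of the same lines are the replicates, and p-values measure the spread between these libraries.

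Interferons are secreted proteins that cells release on infection. Type I and type III interferons bind their receptors, activate JAK kinases and bring STAT2 and IRF9 together in a complex called ISGF3. This complex binds a DNA element, the interferon-stimulated response element (ISRE), in front of the genes that an interferon induces. Sensors among those genes detect foreign RNA, transcription factors among them carry the signal further, and effectors block entry, translation, copying or release of viruses. Epithelial cells, of which SW480 is a tumour descendant, make and answer to these interferons.

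The libraries held 42092664 to 43434425 counts each. MORC2 was lower in every shMORC2 library, with 2021, 1964 and 2007 counts in shCtrl and 1554, 1219 and 1157 in shMORC2, and a log2 fold change of -0.63 (SE 0.10, adjusted p 0.000216 in edgeR). An antisense gene, MORC2-AS1, overlaps it on the other strand. Of the 10 epithelial markers checked, EPCAM, CDH1, KRT8, KRT18, KRT19 and VIL1 were abundant in all libraries. CDX1 had at most 4 counts in any of them and CDH17 had 18 to 60. KRT20 (368 to 828 counts) and CDX2 (579 to 1093) were called higher in shMORC2 in edgeR. Their log2 fold changes were 0.75 (SE 0.16, adjusted p 0.00305) and 0.47 (SE 0.14, adjusted p 0.0158). They made up 22.2% of the epithelial markers tested, beside 19.9% of all genes. The sums of markers of other cell types were higher in shMORC2. The 6 leukocyte markers added up to 38.0 to 47.6 CPM (counts scaled to a common library size) in shCtrl and 59.2 to 110 in shMORC2, most of it CD68, which many cell types use in lysosomes. CD68 was called higher (log2 fold change 1.27, SE 0.20, adjusted p 0.000296 in edgeR). PTPRC, the pan-leukocyte marker, had 0 counts in shCtrl and at most 6 in a shMORC2 library, and CD3E at most 3 in any. LYZ, also on the leukocyte list, had 345 to 411 counts per library. The 5 fibroblast markers added up to 19.9 to 20.7 CPM in shCtrl and 22.7 to 25.0 CPM in shMORC2. DCN had at most 2 counts and COL1A2 at most 10, but COL1A1 had 355 to 458 and LUM 330 to 514. The 3 endothelial markers added up to 15.7 to 19.6 and 20.6 to 22.3 CPM. CDH5 had at most 2 counts, but PECAM1 had 576 to 860. VWF had 86 to 153 and was called higher (log2 fold change 0.54, SE 0.17, adjusted p 0.0238 in edgeR). The part of these shifts in the results that follow was not tested. In bulk RNA, a change in the number of cells that express a gene and a change in its RNA per cell cannot be told apart.

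The DNA around the starts of the genes is shown first, because the ISRE is the element that ISGF3 binds. RefSeq promoters (GRCh38.p14, 250 bases before to 50 bases after a transcription start) were held for 42 of the 51 genes, DDX58 under its current symbol RIGI. No entry was held for DHX58, OAS2, OASL, IRF7, USP18, TRIM22, IFIT2, IFITM2 and MX2. Windows around the element are given 5′ to 3′ on the strand of the gene, with every match of the ISRE core, on either strand, in capitals. The core is GAAA, any 2 bases and GAAA again (TTTC, any 2 bases and TTTC when read from the other strand). A longer form ends in CT after the second GAAA, which is then capitalized too. The match printed for MX1 begins after its RefSeq start. Those of ISG15 and IFITM3 lie before the RefSeq start but inside the deposited entry of the gene. The windows of 6 genes that were called higher in shMORC2 come first, ISG15 (chr1:1013375-1013416, plus strand), IFIT1 (chr10:89392490-89392531, plus), IFITM3 (chr11:320886-320927, minus), MX1 (chr21:41420554-41420595, plus), SAMD9 (chr7:93118091-93118130, minus) and IFI6 (chr1:27672322-27672363, minus).
ISG15: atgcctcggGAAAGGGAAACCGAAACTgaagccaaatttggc
IFIT1: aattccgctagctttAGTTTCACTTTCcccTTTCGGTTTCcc
IFITM3: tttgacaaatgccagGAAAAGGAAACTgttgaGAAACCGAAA
MX1: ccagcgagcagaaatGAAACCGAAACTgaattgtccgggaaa
SAMD9: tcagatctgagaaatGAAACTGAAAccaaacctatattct
IFI6: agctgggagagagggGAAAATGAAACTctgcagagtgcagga

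The same element stood near the RefSeq starts of genes that were not called or that were hardly detected. These are shown for comparison, and are EIF2AK2 (chr2:37156960-37157001, minus strand), IFIT3 (chr10:89327858-89327899, plus), IFIT5 (chr10:89414506-89414547, plus), BST2 (chr19:17405734-17405775, minus), IFI44 (chr1:78649754-78649795, plus) and RTP4 (chr3:187368328-187368369, plus). By the RefSeq starts, PARP9 and DTX3L are read outwards from 1 shared site (chr3:122564317-122564358). This site is printed for each gene on its own strand, minus for PARP9 and plus for DTX3L.
EIF2AK2: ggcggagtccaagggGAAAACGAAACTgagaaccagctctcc
IFIT3: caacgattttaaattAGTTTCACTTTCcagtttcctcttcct
IFIT5: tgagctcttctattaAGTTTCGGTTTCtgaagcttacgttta
BST2: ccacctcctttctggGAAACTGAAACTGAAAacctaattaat
IFI44: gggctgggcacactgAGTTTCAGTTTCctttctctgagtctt
RTP4: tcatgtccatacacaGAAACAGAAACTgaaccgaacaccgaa
PARP9: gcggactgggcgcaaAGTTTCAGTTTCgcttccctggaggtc
DTX3L: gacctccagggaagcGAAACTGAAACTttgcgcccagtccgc

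The core was in the promoters of 27 of the 42 genes (64.3%), against 4.38% of 27305 genes with a promoter of the same length. The longer form, which is a subset of the core, was in 17 of 42 (40.5%), against 0.322%. The GAS element, TTC and GAA with any 3 bases between them, which reads the same on both strands and serves interferon gamma signalling, was in 12 of 42 (28.6%), against 9.38%. Among the genes with a promoter, the core was found in 8 of 13 called higher (61.5%), in 14 of 22 tested and not called (63.6%) and in 5 of 7 not tested (71.4%). The 3 transcription factors with an entry had no match of the core or its longer form, and 2 of them, IRF1 and IRF9, had a GAS element. A match is a run of letters in this window and does not show that a factor binds there.

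Of the 51 genes, 43 passed the filter on low counts and were tested. In edgeR's quasi-likelihood test, 17 rose in shMORC2 (39.5% of those tested) and 0 were called lower, at an adjusted p under 0.05 over 21005 genes. The background was 19.9% of all genes tested called higher and 19.6% called lower, or 39.5% in either direction. Without adjustment, 4 of these genes were lower and 17 higher at p under 0.05 in edgeR. The shares of all genes under that unadjusted threshold were not computed, so these 2 counts are no result about the members. DESeq2 called 18 members higher and 0 lower, against a background of 15.9% and 15.5% of all genes. A fit that blocked on the replicate number gave 19 that rose and 5 that fell (IFIH1, OASL, IRF7, SP100 and IFIT5), against a background of 24.4% and 24.5%, or 49% in either direction.

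The members varied widely around a small median. The median log2 fold change over the 43 genes was 0.14, beside -0.01 over all genes tested, and the values ran from -0.75 (IFITM1) to 1.80 (SAMD9). The sign was positive for 31 genes and negative for 12. The 3 shMORC2 libraries stood above the 3 shCtrl libraries for 20 genes and below them for 5, where the background was 25.1% of all genes in each direction, and the ranges overlapped for 18. Of the 43 genes, 11 lay above the 90th percentile of all genes (0.72) and 1 lay below the 10th (-0.61). A log2 fold change of at least 1 together with a call was seen for 5 genes, SAMD9, IFIT1, HERC6, UBE2L6 and IFITM3, where the background was 4.92%. Where the mean count reached 100 or more, 16 of 36 members rose (44.4%) beside 22.8% of 14335 genes.

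**Figure D1:**
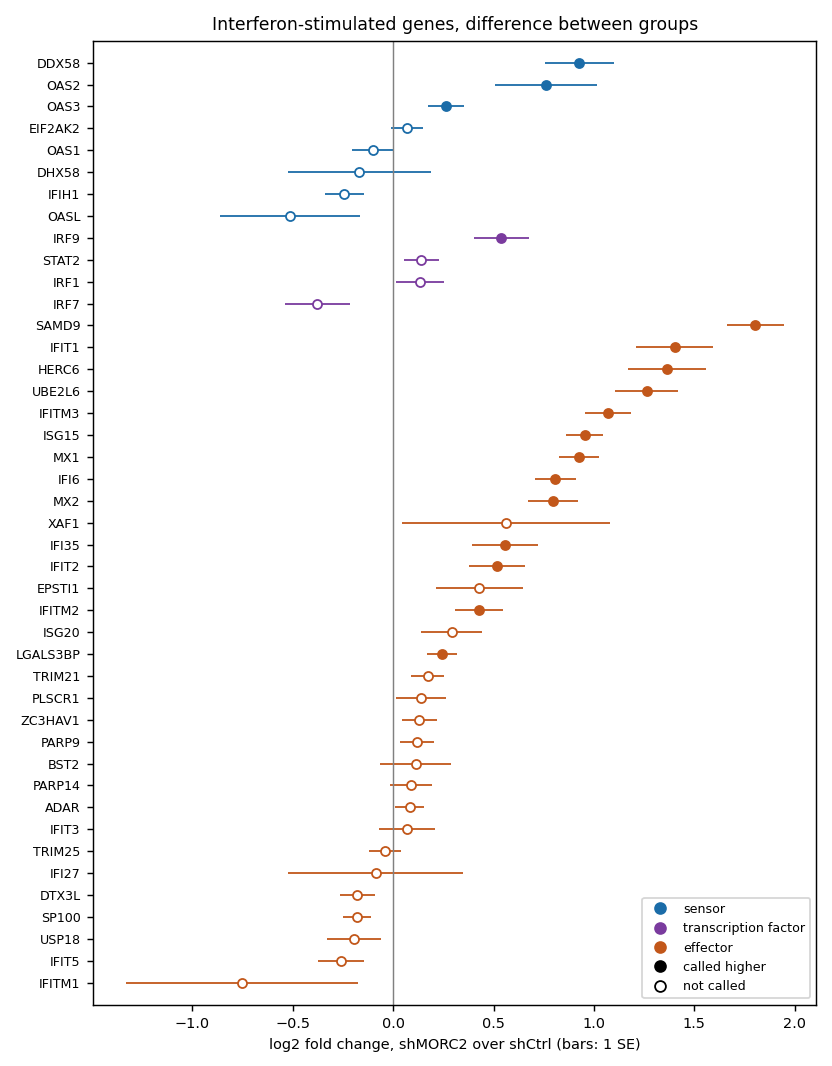
Fitted log2 fold change of shMORC2 over shCtrl for the 43 genes tested (x axis), with genes on the y axis in the order of role and value, bars of 1 SE, and filled points for an edgeR adjusted p under 0.05. The 17 filled points lie between 0.24 (LGALS3BP) and 1.80 (SAMD9), and the open points between -0.75 (IFITM1) and 0.56 (XAF1).

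Of the 8 sensors, all tested, 3 rose (DDX58, OAS2 and OAS3, 37.5% beside 19.9% of all genes), and the median log2 fold change was -0.02, with 4 values positive and 4 negative. DDX58 (chr9:32455705-32526324, minus strand), which encodes RIG-I, the receptor for triphosphate-ended RNA, stood at 2.37, 3.19 and 2.94 CPM in shCtrl and 6.24, 4.37 and 5.54 CPM in shMORC2. The lowest shMORC2 library was above the highest shCtrl library, and the log2 fold change was 0.93 (SE 0.17, adjusted p 0.000943 in edgeR). IFIH1 (chr2:162267079-162318703, minus), which encodes MDA5, the receptor for long double-stranded RNA, pointed the other way with 14.6, 13.1 and 13.6 CPM in shCtrl and 12.3, 11.3 and 11.2 CPM in shMORC2. Its groups did not overlap either, at a log2 fold change of -0.24 (SE 0.10, adjusted p 0.0642 in edgeR, and 0.0298 with the replicate block or 0.0442 without shMORC2 replicate 1). DHX58, which encodes LGP2, the relative of both that lacks the signalling domain, had 15 to 27 counts in every library and a log2 fold change of -0.17 (SE 0.36).

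The oligoadenylate synthetases make the second messenger that switches on RNase L. OAS1, OAS3 and OAS2 lie in that order on chromosome 12, with gaps of 5129 and 5145 bases. OAS1 (chr12:112906777-112933222, plus strand) stood at 9.22, 9.58 and 8.73 CPM in shCtrl and 8.66, 8.65 and 8.36 CPM in shMORC2, a log2 fold change of -0.10 (SE 0.10, adjusted p 0.469 in edgeR). OAS3 (chr12:112938352-112973249, plus) stood at 21.4, 18.6 and 18.6 CPM and at 23.1, 23.8 and 23.5 CPM, a log2 fold change of 0.26 (SE 0.09, adjusted p 0.0295 in edgeR). The OAS3 groups were apart by less than the range of its shCtrl libraries. OAS2 (chr12:112978395-113011723, plus) had 64, 36 and 43 counts in shCtrl and 102, 79 and 64 in shMORC2. Its lowest shMORC2 count equalled its highest shCtrl count, although the CPM values did not overlap, and the log2 fold change was 0.76 (SE 0.25, adjusted p 0.0285 in edgeR). The OAS2 call was lost without shCtrl replicate 2 or 3 or without shMORC2 replicate 1 or 2, at log2 fold changes from 0.60 to 0.77. The OAS3 call was lost without shCtrl replicate 2 or 3 or shMORC2 replicate 2 or 3, at 0.23 to 0.27. It was also lost without the filter on low counts (adjusted p 0.0517 in edgeR). Of the alternative fits and thresholds described below, 7 of 16 kept the OAS3 call and 8 of 14 the OAS2 call. OASL, a relative that makes no messenger and binds RIG-I, had 57, 80 and 91 counts and 23, 72 and 66 counts, and its low shMORC2 library was replicate 1. Its log2 fold change was -0.51 (SE 0.35, adjusted p 0.267 in edgeR), and -0.58 with the replicate block (adjusted p 0.0456). Without shMORC2 replicate 1 and without the block it was -0.13 (adjusted p 0.716), so the size of the OASL difference rests on that library. EIF2AK2, the RNA-activated kinase PKR that halts translation, had one of the ISREs printed above and 54.8 to 61.6 CPM in shCtrl and 58.8 to 65.1 CPM in shMORC2, with a log2 fold change of 0.07 (SE 0.08).

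Of the 4 transcription factors, IRF9 rose and the others were not called. This share of 25% is near the background of 19.9% of all genes called higher. The count is therefore no result about the transcription factors. IRF9 (chr14:24161053-24166565, plus strand), the DNA-binding subunit of ISGF3, stood at 7.87, 9.91 and 9.34 CPM in shCtrl and 10.6, 14.2 and 14.6 CPM in shMORC2. The groups did not overlap, and the log2 fold change was 0.54 (SE 0.14, adjusted p 0.00664 in edgeR). The entry of IRF9 overlaps a gene without a name of its own on the same strand. STAT2 (chr12:56341597-56360155, minus), the subunit that activates transcription, also stood higher in every shMORC2 library, with 19.4, 23.2 and 21.8 CPM against 23.4, 24.3 and 23.4 CPM. Its log2 fold change of 0.14 (SE 0.09, adjusted p 0.231 in edgeR) did not pass the test. IRF7 (chr11:612553-615999, minus), which drives the interferon alpha genes, stood at 3.54, 3.76 and 3.74 CPM in shCtrl and at 2.55, 2.62 and 3.33 CPM in shMORC2. The log2 fold change was -0.38 (SE 0.16, adjusted p 0.0795 in edgeR, and 0.0445 with the replicate block or 0.0448 without shMORC2 replicate 3). IRF1, a factor induced mainly by interferon gamma, ran from 25.4 to 36.1 CPM in shCtrl and from 31.1 to 33.9 CPM in shMORC2. Its high shCtrl library was replicate 2, without which the log2 fold change went from 0.14 (SE 0.12, adjusted p 0.394 in edgeR) to 0.32 (adjusted p 0.0224).

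Of the 39 effectors, 31 were tested and 13 rose (41.9% beside 19.9% of all genes). Called lower were 0, beside 19.6% of all genes, and the median log2 fold change was 0.24. With the replicate block 15 rose and 2 fell, where the background was 24.4% and 24.5% of all genes. ISG15 is a ubiquitin-like protein that is joined to other proteins by UBE2L6, its conjugating enzyme, and HERC5, its main ligase, and is removed by USP18. ISG15 (chr1:1001138-1014541, plus strand) stood at 38.3, 42.7 and 47.0 CPM in shCtrl and at 74.2, 87.8 and 85.9 CPM in shMORC2. Every shMORC2 library was above every shCtrl library, and the log2 fold change was 0.95 (SE 0.09, adjusted p 7.18e-06 in edgeR). UBE2L6 (chr11:57551656-57568284, minus) stood at 3.19, 4.56 and 3.21 CPM and at 7.80, 8.70 and 9.82 CPM, a log2 fold change of 1.26 (SE 0.16, adjusted p 4.87e-05 in edgeR). Its groups were likewise apart.

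Among the ligases, HERC6 rose. HERC6 (chr4:88378739-88443111, plus strand), a relative of HERC5, stood at 1.89, 1.13 and 1.73 CPM in shCtrl and at 4.28, 3.89 and 4.09 CPM in shMORC2, a log2 fold change of 1.36 (SE 0.19, adjusted p 0.00013 in edgeR). HERC5 starts 14005 bases further on and had 4, 4 and 4 counts in shCtrl and 2, 0 and 2 in shMORC2, too few to be tested. USP18 (chr22:18149899-18177397, plus) stood at 7.25, 6.81 and 5.98 CPM in shCtrl and at 5.41, 5.45 and 6.67 CPM in shMORC2, with overlapping groups and a log2 fold change of -0.19 (SE 0.13, adjusted p 0.272 in edgeR). Of the 50-base windows of its transcripts, 11.6% are shared with USP41, so its counts are uncertain. Of the TRIM ubiquitin ligases, TRIM21, a cytosolic antibody receptor, ran from 33.2 to 36.2 CPM in shCtrl and from 36.1 to 41.5 CPM in shMORC2 (log2 fold change 0.17, SE 0.08, adjusted p 0.119 in edgeR, and 0.0384 with the replicate block or 0.0351 without shMORC2 replicate 1). TRIM25, the ligase that acts on RIG-I, had a log2 fold change of -0.04 (SE 0.08), and TRIM22, an antiviral ligase, never exceeded 6 counts in a library. In all, 3 of the 6 tested genes around ISG15 and ubiquitin rose (50% beside 19.9% of all genes), with a median of 0.56.

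The 3 genes of ADP-ribosylation were not called, where 39.5% of all genes were called in either direction. By the RefSeq starts, PARP9 and DTX3L, whose proteins form a complex, leave their shared ISRE in opposite directions. Their deposited entries overlap at the starts, and the site lies inside both. PARP9 (chr3:122527924-122564577, minus strand) had 767, 714 and 706 counts in shCtrl and 853, 785 and 760 in shMORC2. DTX3L (chr3:122564238-122575203, plus) had 969, 1007 and 1043 counts and 942, 899 and 859 counts. In CPM, PARP9 stood above shCtrl in every shMORC2 library (log2 fold change 0.12, SE 0.09, adjusted p 0.298 in edgeR) and DTX3L below it in every one (-0.18, SE 0.09, adjusted p 0.12). Neither passed the test. PARP14, which adds single ADP-ribose units to proteins, had a log2 fold change of 0.09 (SE 0.11).

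Among the 7 genes for RNA binding, decay and editing, IFIT1 and IFIT2 rose (28.6% beside 19.9% of all genes) and the median was 0.13. The IFIT proteins bind RNA ends that lack host marks, and their genes lie together on chromosome 10 in the order IFIT2, IFIT3, IFIT1 and IFIT5, on the plus strand, with gaps of 18617, 51574 and 8099 bases. IFIT1 (chr10:89392546-89406486) stood at 2.65, 1.68 and 1.85 CPM in shCtrl and at 6.45, 5.00 and 4.91 CPM in shMORC2, a log2 fold change of 1.40 (SE 0.19, adjusted p 9.71e-05 in edgeR). IFIT5 (chr10:89414586-89421001), its neighbour, stood at 15.4, 12.4 and 13.5 CPM in shCtrl and at 12.6, 10.4 and 11.6 CPM in shMORC2. The IFIT5 groups overlapped slightly, and the log2 fold change was -0.26 (SE 0.11, adjusted p 0.0837 in edgeR, and 0.0203 with the replicate block or 0.0392 without shMORC2 replicate 1). IFIT2 (chr10:89283694-89309276) stood at 4.54, 3.5 and 4.11 CPM and at 5.88, 5.57 and 5.94 CPM, a log2 fold change of 0.52 (SE 0.14, adjusted p 0.00928 in edgeR), with no overlap of the groups. IFIT2 shares bases with LIPA on the other strand and with a gene without a name of its own on the same strand. IFIT3 (chr10:89327894-89340971) ran from 5.56 to 6.46 CPM in shCtrl and from 5.14 to 6.79 CPM in shMORC2, with a log2 fold change of 0.07 (SE 0.14). IFIT1, IFIT3 and IFIT5 all had an ISRE of the longer form in the windows printed above.

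The other genes of RNA were not called. ISG20, an exonuclease, stood at 10.2, 12.3 and 11.9 CPM in shCtrl and at 10.2, 15.9 and 16.0 CPM in shMORC2, where replicate 1 was at the level of shCtrl. Its log2 fold change was 0.29 (SE 0.15, adjusted p 0.149 in edgeR), with the replicate block 0.27 (adjusted p 0.0215), and without shMORC2 replicate 1 it was 0.48 (adjusted p 0.00297). ZC3HAV1, which leads CpG-rich RNA to decay, had a log2 fold change of 0.13 (SE 0.09), and ADAR, which edits A to I in double-stranded RNA, of 0.08 (SE 0.07).

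Of the 7 genes that act at membranes or encode dynamin-like GTPases, 4 rose (57.1% beside 19.9% of all genes), with a median of 0.43. IFITM proteins keep viruses from fusing with cell membranes. IFITM3 (chr11:319669-327537, minus strand) stood at 8.51, 7.64 and 8.41 CPM in shCtrl and at 15.1, 17.0 and 19.5 CPM in shMORC2, a log2 fold change of 1.07 (SE 0.11, adjusted p 1.41e-05 in edgeR). IFITM2 (chr11:307631-315272, plus) stood at 13.0, 11.2 and 14.2 CPM and at 14.8, 17.8 and 19.1 CPM, a log2 fold change of 0.43 (SE 0.12, adjusted p 0.0119 in edgeR). The IFITM2 call was lost without shCtrl replicate 2 (0.34, adjusted p 0.0634) or shMORC2 replicate 3 (0.35, adjusted p 0.0679). IFITM1, between them, had 5, 10 and 25 counts in shCtrl and 7, 10 and 7 in shMORC2. Its fitted log2 fold change was -0.75 (SE 0.58, adjusted p 0.327 in edgeR) and 0.10 without shCtrl replicate 3. The deposited entries of IFITM1 and IFITM2 overlap on the same strand, and 14.8% to 20.1% of the 50-base windows of these 3 genes are shared with other genes, so how reads were split between them is uncertain.

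MX1 and MX2 are GTPases that trap viral particles, in the nucleus, the cytoplasm or at nuclear pores. They are neighbours on chromosome 21, with a gap of 10913 bases, and both rose. MX1 (chr21:41420304-41459214, plus strand) stood at 9.63, 11.6 and 10.5 CPM in shCtrl and at 19.1, 20.7 and 20.4 CPM in shMORC2, a log2 fold change of 0.93 (SE 0.10, adjusted p 1.49e-05 in edgeR). MX2 (chr21:41361943-41409390, plus) stood at 7.92, 7.47 and 7.10 CPM and at 14.4, 10.8 and 13.8 CPM, a log2 fold change of 0.80 (SE 0.12, adjusted p 0.000249 in edgeR). Neither gene had overlapping groups. BST2, or tetherin, which holds budding viruses at the cell surface, ran from 6.42 to 7.33 CPM in shCtrl and stood at 5.37, 9.75 and 7.61 CPM in shMORC2, with a log2 fold change of 0.11 (SE 0.18). PLSCR1, a phospholipid scramblase, had a log2 fold change of 0.14 (SE 0.12).

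SAMD9 had the highest log2 fold change of the 43 genes. SAMD9 and SAMD9L are a pair of neighbouring genes on chromosome 7 whose proteins restrain translation and cell growth. SAMD9 (chr7:93099513-93118023, minus strand) stood at 6.16, 4.37 and 4.86 CPM in shCtrl and at 20.1, 18.3 and 15.4 CPM in shMORC2. The means were 5.13 ± 0.923 and 17.9 ± 2.38 CPM (SD, n = 3 each), and the log2 fold change was 1.80 (SE 0.14, adjusted p 1.36e-06 in edgeR). SAMD9L (chr7:93130055-93148369, minus), across a gap of 12031 bases, had 4, 0 and 2 counts in shCtrl and 26, 8 and 13 in shMORC2. It did not pass the filter on low counts and was called higher without that filter (edgeR adjusted p 0.000665) and by DESeq2 (adjusted p 0.0102). CMPK2 and RSAD2, which make a chain-ending nucleotide in turn, overlap head to head on chromosome 2. CMPK2 had 0 counts in every library and RSAD2 a single count in shMORC2 replicate 2. A count of 0 allows up to 0.0676 to 0.0729 CPM, depending on the library.

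Of the remaining 10 effectors, 7 were tested and IFI6, IFI35 and LGALS3BP rose (42.9% beside 19.9% of all genes). IFI6 (chr1:27666061-27672218, minus strand), a small membrane protein that keeps cells alive, stood at 11.95, 10.7 and 10.8 CPM in shCtrl and at 17.7, 20.1 and 20.8 CPM in shMORC2. The log2 fold change was 0.81 (SE 0.10, adjusted p 4.37e-05 in edgeR) and the groups did not overlap. IFI35 (chr17:43006725-43014456, plus) stood at 2.76, 3.43 and 3.38 CPM and at 3.85, 5.26 and 4.98 CPM, a log2 fold change of 0.56 (SE 0.16, adjusted p 0.0159 in edgeR). Its call was lost without shCtrl replicate 1 (0.46, adjusted p 0.0509), shMORC2 replicate 2 (0.47, adjusted p 0.0706) or shMORC2 replicate 3 (0.52, adjusted p 0.0611). LGALS3BP (chr17:78971238-78980109, minus), a secreted glycoprotein, stood at 435, 455 and 434 CPM in shCtrl and at 486, 520 and 561 CPM in shMORC2, a log2 fold change of 0.24 (SE 0.08, adjusted p 0.0224 in edgeR). The LGALS3BP call was lost without shCtrl replicate 3 (0.23, adjusted p 0.0767), shMORC2 replicate 2 (0.25, adjusted p 0.06) or shMORC2 replicate 3 (0.19, adjusted p 0.102).

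SP100, a scaffold of nuclear bodies, pointed the other way with small spread. It stood at 73.9, 73.1 and 74.3 CPM in shCtrl and at 66.0, 64.4 and 65.2 CPM in shMORC2, with no overlap, a log2 fold change of -0.18 (SE 0.07, adjusted p 0.0564 in edgeR) and an adjusted p of 0.0163 with the replicate block. Its entry overlaps the pseudogene HMGB1P3 on the same strand. EPSTI1 ran from 1.26 to 1.83 CPM and from 1.93 to 2.69 CPM without passing the test (0.43, SE 0.22, adjusted p 0.135 in edgeR). XAF1, a partner of the apoptosis inhibitor XIAP, had 4 to 10 counts in shCtrl and 6 to 12 in shMORC2, and IFI27 had 12 to 35 and 14 to 36. IFI44 had 8, 2 and 4 counts in shCtrl and 0 in all shMORC2 libraries, IFI44L 0 in every library and RTP4 at most 6 in any.

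**Figure D2:**
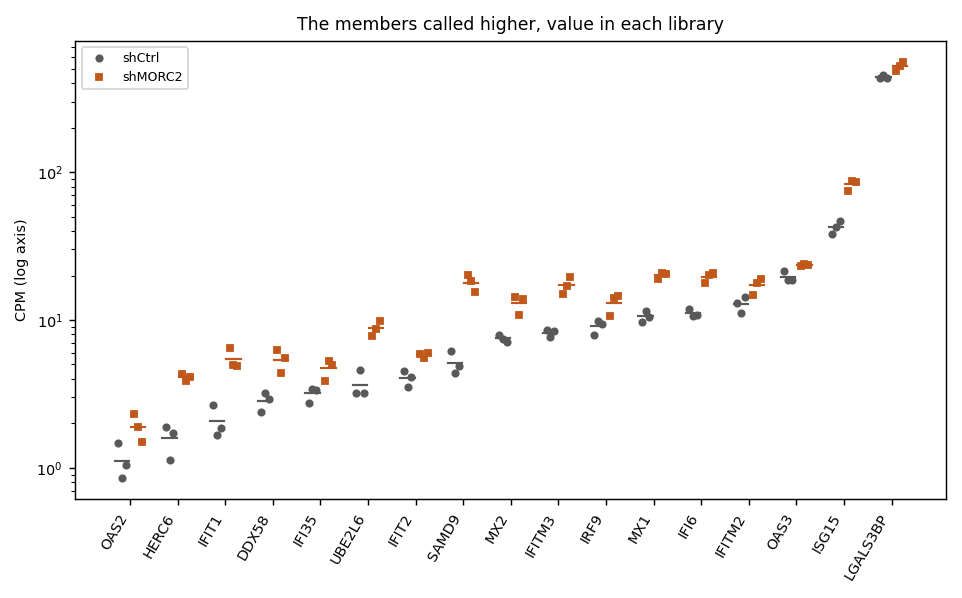
CPM of the 17 genes called higher (log y axis), with 1 point per library, 3 shCtrl and 3 shMORC2, a bar at each group mean, and genes on the x axis in order of the shCtrl mean. SAMD9 shows the widest gap, from at most 6.16 CPM in shCtrl to at least 15.4 CPM in shMORC2, and OAS2 and IFITM2 the narrowest.

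Levels per length showed how uneven the family was in these cells. In RPKM, which divides by exon length, LGALS3BP came first in shCtrl at 123, followed by ISG15 at 45.3, TRIM21 at 18.2, ADAR at 16.3 and IFI6 at 12.9. In shMORC2, IFI6 stood at rank 3 with 22.5. UBE2L6 moved from rank 25 to 14 among the 51 genes, SAMD9 from 32 to 21, and HERC6 from 39 to 36. Of the 13 tested genes below 1 RPKM in shCtrl, 7 rose, and of the 30 at 1 RPKM or more, 10 rose. Over all genes tested, at any level, 19.9% were called higher. The shares of all genes within these ranges of RPKM were not computed, so the counts cannot tell the ranges apart. Across the 43 genes the log2 fold change and the log2 RPKM in shCtrl had a Pearson correlation of -0.104, a description across genes that share libraries. At the low end, 7 of the 51 genes had at most 10 counts in every library, 2 of them none at all.

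**Figure D3:**
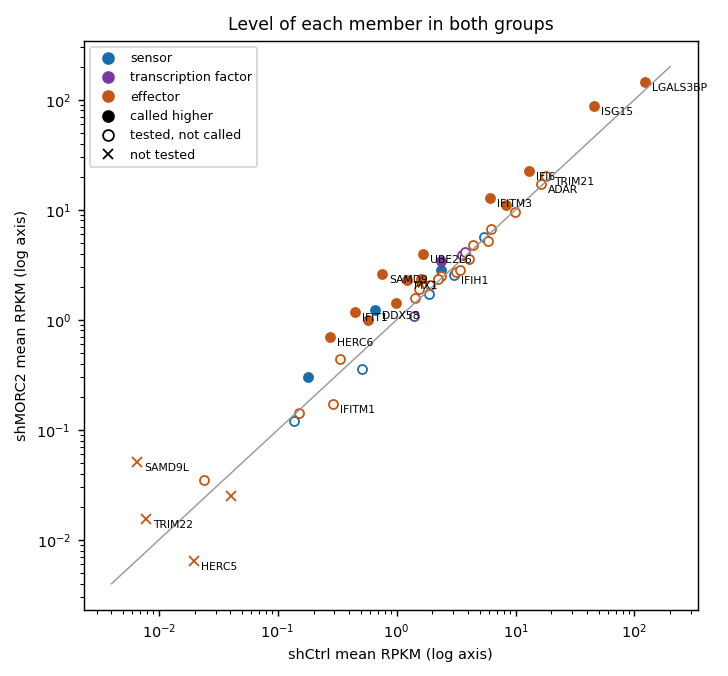
Mean RPKM in shCtrl (x axis) and shMORC2 (y axis), both log axes, 1 point per gene, with the line of equal levels, filled points for genes called higher and crosses for genes not tested. Genes at 0 in a group, such as CMPK2 and IFI44, cannot be drawn on these axes, and LGALS3BP and ISG15 lie at the upper end with 123 and 45.3 RPKM in shCtrl.

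Summed over the 51 genes, shCtrl held 1190 ± 13.3 CPM and shMORC2 1398 ± 49.5 CPM (SD, n = 3 each). LGALS3BP made up 37.1% of the shCtrl sum. Without it, the sums were 749.2 ± 10.4 and 875.6 ± 12.5 CPM, with ranges of 741.1 to 761 and 861.8 to 886.3 that did not overlap. Abundant genes weigh most in such sums, and ISG15 alone had means of 42.7 CPM in shCtrl and 82.7 CPM in shMORC2. The sums therefore do not show how many genes rose.

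**Figure D4:**
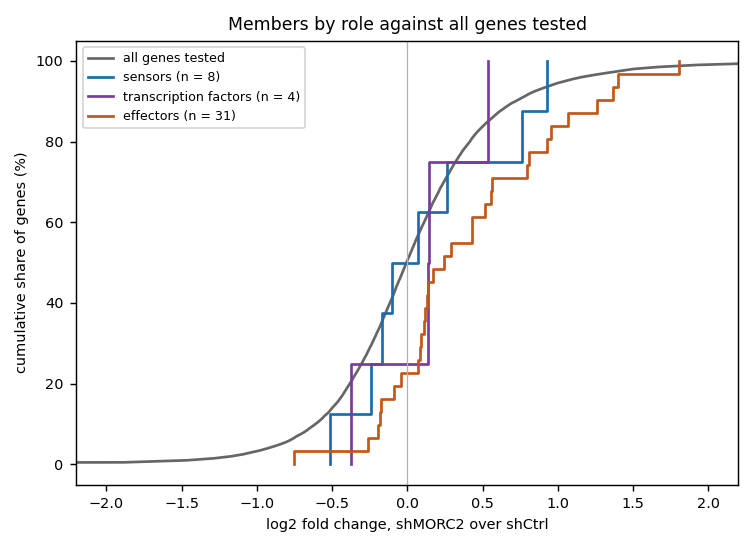
Cumulative share of genes (y axis, %) by log2 fold change of shMORC2 over shCtrl (x axis), for all 21005 genes tested and for the 8 sensors, 4 transcription factors and 31 effectors tested. The effector curve lies to the right of that of all genes over most of its range, with a median of 0.24, and the sensor curve has a median of -0.02.

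The rest of the interferon pathway was read from a list of 53 genes that are no members, of which 27 were tested. Of these, 5 rose (18.5%) and 6 fell (22.2%), shares near the background of 19.9% and 19.6% of all genes, with a median log2 fold change of -0.07. These counts are therefore no result about the pathway, and the values that follow describe single genes. None of the 22 interferon genes could be tested. IFNE had 2, 6 and 2 counts in shCtrl and 13, 2 and 2 in shMORC2, and IFNL1 had 0 in all shCtrl libraries and 0, 2 and 6 in shMORC2. IFNL2, IFNL3 and IFNA7 never exceeded 2 counts, and the other 17 interferon genes had 0 counts in all 6.

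Of the 9 receptor and kinase genes, 2 rose and 2 fell (22.2% each), also near the background. IFNAR1, a subunit of the type I receptor, rose with a log2 fold change of 0.35 (SE 0.09, adjusted p 0.00839 in edgeR), and IFNLR1, the ligand-binding subunit of the type III receptor, rose by 0.38 on the log2 scale (SE 0.12, adjusted p 0.0256). IL10RB, which pairs with IFNLR1, stood at 12.9, 15.5 and 13.6 CPM in shCtrl and at 5.07, 5.84 and 5.57 CPM in shMORC2, a log2 fold change of -1.35 (SE 0.12, adjusted p 2.39e-06 in edgeR). IFNGR2, of the interferon gamma receptor, fell as well (-0.72, SE 0.09, adjusted p 5.39e-05 in edgeR). The other 5 genes of this group were not called.

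The genes that relay the signal gave 10 tests. TBK1, the kinase downstream of RIG-I and MDA5 that activates IRF3, fell from 30.2, 30.8 and 24.8 CPM to 18.1, 15.3 and 14.4 CPM (log2 fold change -0.84, SE 0.11, adjusted p 6.93e-05 in edgeR). TRAF6, a ubiquitin ligase of Toll-like receptor signalling, fell too (-0.38, SE 0.10, adjusted p 0.0095 in edgeR). Of the 8 genes listed as restraining the pathway, SAMHD1 (0.37, SE 0.11, adjusted p 0.0148 in edgeR) and PTPN6 (0.21, SE 0.08, adjusted p 0.048) rose. SOCS3 (-0.81, SE 0.22, adjusted p 0.00982 in edgeR) and PIAS1 (-0.28, SE 0.08, adjusted p 0.0115) fell. With the replicate block, the counts of the 27 pathway genes tested were 6 higher, with IKBKE added, and 8 lower, with TICAM1 and PTPN2 added. The background of that fit was 24.4% of all genes higher and 24.5% lower. IFNAR1, IL10RB, IFNGR2 and TBK1 kept their calls whichever library was left out. The call of IFNLR1 was lost without shCtrl replicate 1 or 3 or shMORC2 replicate 2 or 3 (0.27 to 0.39), that of TRAF6 without shCtrl replicate 3 (-0.34), and that of SOCS3 without shCtrl replicate 2 (-0.52) or shMORC2 replicate 3 (-0.74). PIAS1 lost it without shCtrl replicate 3 (-0.27) or shMORC2 replicate 3 (-0.23), SAMHD1 without shCtrl replicate 2 or 3 or shMORC2 replicate 3 (0.31 to 0.35), and PTPN6 without any library but shMORC2 replicate 1 (0.17 to 0.23).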

How the data were processed

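Counts were taken from the deposited table of raw counts per gene symbol, which the authors made from stranded mRNA libraries with molecular identifiers. The submitters' processing notes name Trimmomatic 0.36, STAR 2.5.3a, featureCounts, Subread 1.5.1, edgeR 3.12.1 and GRCh38. The strand setting and the collapsing of identifiers are not given in the sources used here. Without strand, overlapping antisense genes (MORC2, ISG15, IFITM3, MX1 and others) cannot be told apart. Of the values from 1 to 10 counts, 68.8% were even, beside 50.6% of those of 51 counts or more, so mates of a pair may have been counted singly. The authors also deposited RPKM values, which scale these counts by exon length and library total. The deposited splicing tables hold the authors' own comparison of unnamed groups and were not used. In the gene tables, 0 columns belonged to other series.

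Tests used edgeR 4.0.16 in R 4.3.3 (filterByExpr, TMM, quasi-likelihood, group as the only term) with Benjamini-Hochberg adjustment over 21005 genes and a call at an adjusted p under 0.05. The SE is the size of the log2 fold change divided by the square root of F. CPM used TMM-scaled library sizes. The floor was 3 counts, which covers counting error only. Coordinates are those of the deposited table (GRCh38), and all 51 genes overlapped their GENCODE v44 entries. Alternatives were DESeq2 1.42.0, no TMM, other filters, limma 3.58.1 on log2(RPKM + 1) and log2(RPKM + 0.1), a stricter threshold of 0.01, the replicate block, leaving out each library and, added after the even counts were seen, counts halved and rounded up. The tests were tested on simulated data.

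The numbers 1 to 3 in the labels were taken to pair the libraries, since libraries of the same number deviated together from their group means, with correlations of 0.215, 0.111 and 0.102. Correlations between libraries of different numbers were not computed. The pairing rests on the values alone, and the calls with the replicate block depend on it. Replicates of a group had correlations of log2 CPM of 0.989 to 0.992 and differed by more than sampling noise. The members, the pathway list, the markers and the tests were chosen with earlier results of these data known. All 51 members and MORC2 were named, and of the pathway list the called genes, except 1 that is not reported here, and the interferon genes with any count.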

Additional observations from a re-analysis of the deposited data

How the results depend on the processing

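Of the 17 genes that rose, 12 kept the call whichever library was left out, and 9 (DDX58, ISG15, UBE2L6, HERC6, IFIT1, IFITM3, MX1, SAMD9 and IFI6) kept it under each alternative that tested them. Leaving out each library in turn gave 13 to 18 members higher and 0 to 2 lower, 1 to 3 and 0 to 1 of the sensors, 1 to 2 and 0 to 1 of the transcription factors, 10 to 15 and 0 to 1 of the effectors, and 2 to 5 and 4 to 7 of the pathway genes. The background moved as well. Of all genes, 3259 of 21598 were higher and 3009 lower without shMORC2 replicate 3, the fewest. Without shMORC2 replicate 1, 4258 of 21524 were higher and 4175 lower, the most. The replicate block gave 5 members lower, of which 2 were sensors, 1 was a transcription factor and 2 were effectors, and it raised the genes called from 8301 to 10287. With limma, members higher were 11 on log2(RPKM + 1), 11 on log2(RPKM + 0.1) and 9 on log2(RPKM + 1) without a filter. In the same order, sensors higher were 0, 0 and 1 and pathway genes higher 3, 3 and 1. The unfiltered fit also gave 0 transcription factors and 8 effectors higher, and of all 36613 genes it gave 2864 higher and 2590 lower. The first 2 of these fits tested 32 members and 4 sensors, and called 3045 and 3037 of 14816 genes higher. At an adjusted p under 0.01, 2778 of all genes were higher and 2524 lower, with 1 sensor and 2 pathway genes higher. Without a filter on low counts, 1 member was lower (IFI44, an effector, edgeR adjusted p 0.032), and with counts halved 1 was lower (SP100, an effector, adjusted p 0.04999). Of all genes, 4329 of 36613 were lower without the filter and 4079 of 18950 with counts halved.

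Over the fits that left out 1 library, the sign turned without shMORC2 replicate 1 for DHX58 (0.03, the others down to -0.47) and PARP14 (-0.01, the others up to 0.20), without shMORC2 replicate 2 for TRIM25 (0.02, down to -0.08) and BST2 (-0.11, up to 0.31), and without shCtrl replicate 3 for IFITM1 (0.10, down to -1.16). For IFI27 it turned without shCtrl replicate 1 (0.06), shCtrl replicate 3 (0.19) or shMORC2 replicate 3 (0.20), and the others went down to -0.45. None of these was called. The causes were not tested. DESeq2 gave no adjusted p for 12779 genes, HERC5, TRIM22, RSAD2, IFI44 and RTP4 among them. CMPK2 and IFI44L, without a count in any library, were not in that fit. Beyond the calls named in the report, the block changed none of the members' calls. Depth limits the 8 genes not tested, for which no difference could be detected by the main test.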
